A study of Mus musculus with 18 samples.

Results

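The 5 microRNA entries mmu-miR-1249-3p, mmu-miR-1843b-3p, mmu-miR-1843b-5p, mmu-miR-1843a-5p and mmu-miR-1981-3p, from 4 hairpins, are described here across chronically irradiated skin, papilloma and squamous cell carcinoma of the mouse. They are 5 of the 1251 entries of the mouse microRNA table and were chosen by name, as late-catalogued microRNAs with large changes between lesions and skin, so their values against skin are a description and carry no test. Of the 5, miR-1843a-5p did not meet that wording, as it was barely above the lowest value of the table in skin and undetected in papilloma.

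Small RNA sequencing covered 18 libraries from 6 female SKH-1E Hairless littermates, numbered mouse 2, 3, 7, 8, 9 and 10, each of which gave all 3 sample types (n = 6 each). CHR was skin without a lesion, PAP was papilloma and SCC was cutaneous squamous cell carcinoma (cuSCC), which the study compared as successive steps from exposed skin to carcinoma. All mice had received chronic ultraviolet B and A from a solar simulator, so the CHR samples are exposed skin, and unexposed skin was not analysed here. The study's histology gave low grades to all lesions and estimated that tumour cells made up most of each. No genetic change had been engineered into these mice, which the paper describes as lacking the Hairless gene, and the labels give no age.

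MicroRNAs are short RNAs cut from hairpin precursors. Either strand of the hairpin, the 5p or the 3p arm, can be loaded into an Argonaute protein, where the bases after the first one (the seed) pair with target messenger RNAs. Some hairpins skip the nuclear Drosha cut because splicing alone releases them as a short intron (mirtrons), and others lie within small nucleolar or Cajal body RNAs (scaRNAs), which guide the chemical modification of spliceosomal RNAs. The entries described here carry high catalogue numbers, given late in the cataloguing of mouse microRNAs, and few functions in skin are assigned to them.

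The mature sequences of the 5 entries, and of the other arms of their hairpins, are shown because the seeds and the overlap of the miR-1843 arms decide how their values can be read. They are RefSeq sequences (GRCm38.p6), matched by name for 5 of the 5 entries and for 1001 of the 1251 entries of the table, written 5′ to 3′ with the seed, bases 2 to 8, in capitals.
miR-1249-3p: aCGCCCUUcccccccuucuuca
miR-1843b-3p: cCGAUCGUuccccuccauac
miR-1843a-3p: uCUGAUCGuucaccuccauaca
miR-1843b-5p: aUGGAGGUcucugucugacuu
miR-1843a-5p: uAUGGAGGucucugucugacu
miR-1981-3p: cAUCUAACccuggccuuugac
miR-1981-5p: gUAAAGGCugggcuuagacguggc
No 2 of these arms have the same seed, and none of the entries of the table with a sequence shares a seed with any of the 6 arms above that the table holds. miR-1249-3p is a pyrimidine-rich RNA, with 13 C and 6 U among its 22 bases. miR-1843a-5p and miR-1843b-5p have 20 of their 21 bases in common and differ in where they begin, miR-1843a-5p starting 1 base earlier, so that their seeds are offset by 1 base. The next longest run that either shares with another entry is 9 bases. How the authors' mapping divided reads that match both was not stated, and the 2 entries cannot be taken as separate measurements.

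The 4 hairpins, shown to place the arms, are written with the annotated mature arms in capitals.
Mir1249: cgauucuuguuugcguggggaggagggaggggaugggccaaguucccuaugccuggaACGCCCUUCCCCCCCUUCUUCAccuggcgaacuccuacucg
Mir1843b: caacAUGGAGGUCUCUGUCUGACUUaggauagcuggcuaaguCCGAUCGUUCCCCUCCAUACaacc
Mir1843a: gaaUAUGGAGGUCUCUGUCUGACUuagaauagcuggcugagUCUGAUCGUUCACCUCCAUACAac
Mir1981: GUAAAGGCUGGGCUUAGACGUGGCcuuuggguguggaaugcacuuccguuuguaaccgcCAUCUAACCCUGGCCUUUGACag
Mir1843a and Mir1843b were identical at 59 of 66 aligned positions (89.4%), with 6 mismatches and 1 gap. All 4 hairpins lie within protein-coding genes, on the strand of the gene, in GRCm38. Mir1249 (chr15:84951526-84951623, minus strand) lies in 5031439G07Rik, where it is intronic in 2 of the 3 annotated transcripts that span it and overlaps an exon in 1. Mir1843b (chr1:159340358-159340423, plus strand) lies in an intron of Cop1, which encodes a ubiquitin ligase, and 65 of its 66 bases fall at the 3′ end of the scaRNA gene Scarna3a (chr1:159340283-159340422). Mir1843a (chr12:80391613-80391677, minus strand) lies in an intron of Dcaf5, a substrate receptor of a ubiquitin ligase, and all of its 65 bases fall within Scarna3b (chr12:80391613-80391751). Mir1981 (chr1:184822407-184822488, minus strand) fills an intron of Marc2, which encodes a mitochondrial reductase. The exons on both sides abut it in 6 of the 7 transcripts annotated there, and its sequence opens with GU and ends with AG, as introns do. No other microRNA hairpin lies within 10 kb of any of the 4, the nearest being Mir664 at 421 kb from Mir1981.

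Values are log2 of ppm of usable reads after quantile normalization, so a difference of 1 is a factor of 2, and they are levels relative to the other microRNAs of a library. The lowest value of the table, 3.32 (10 ppm), stands for an entry that was not detected, and an entry was taken as detected above it. Between 163 and 365 entries were detected per library. The lowest detected value of a library ran from just above that value to 4.50 in SCC and was 3.39 to 5.77 in CHR, but 3.71 to 6.83 in PAP, highest in the PAP libraries of mice 7 and 10, and differences in low entries depend on it. Read totals were not used here, so the depth is unknown and values carry no counting error. Below, raised values are those in which each undetected entry was put at its own library's lowest detected value. In bulk samples, fewer cells of a type and less RNA per cell cannot be told apart.

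Of the 5 entries, miR-1249-3p, miR-1843b-3p, miR-1843b-5p and miR-1981-3p were detected in 6 of 6 CHR libraries. With undetected entries at the lowest value of the table, these lay lower in every PAP library than in any CHR library. For miR-1843b-5p, however, the lowest detected values of the PAP of mice 7 and 10 (6.72 and 6.83) were above every CHR value (at most 6.57). For miR-1981-3p, that of mouse 10 (6.83) was above the lowest CHR value (6.73). The order is therefore not known in those PAP libraries. In SCC, miR-1249-3p, miR-1843b-3p and miR-1981-3p were below all CHR libraries, whereas both 5p entries of miR-1843 were detected in all 6 SCC libraries at levels that overlapped those of CHR. With undetected entries at the lowest value, all PAP libraries were below all CHR libraries for 4 of the 5 entries. That was so for 9.56% of the 293 tested microRNAs. All SCC libraries were below all CHR libraries for 3 of the 5, as for 10.6% of those tested. Because these contrasts chose the entries, nothing is read from those counts. In the test across all entries (limma, Benjamini-Hochberg adjusted p under 0.05), 32.4% of the 293 differed between PAP and CHR and 42.3% between SCC and CHR.

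miR-1249-3p was detected in 17 of the 18 libraries. In CHR it ranged from 9.46 to 10.96, with a median of 9.98 (mean 10.14 ± 0.57, SD, n = 6). In PAP the lowest library was undetected at 3.32, the median was 7.20 and the highest was 8.99 (mean 6.86 ± 1.88). In SCC the values ran from 6.08 to 7.50 around a median of 6.94 (mean 6.82 ± 0.53). Both kinds of lesion lay wholly below CHR, and they overlapped each other. The mean was lower by a log2 difference of -3.28 in PAP and -3.32 in SCC, with every mouse in the same direction. The undetected library was the PAP of mouse 10, whose lowest detected value was 6.83, and without mouse 10 the PAP difference was -2.41. With raised values the PAP difference was -2.69. A CHR library held the entry above a median of 68.6% of its detected microRNAs, a PAP library in which it was detected above 27.1%, and an SCC library above 46.4%. The 5p arm of the same hairpin, miR-1249-5p, has an entry in the table and was undetected in all 18 libraries.

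miR-1843b-3p was detected in every library. Its CHR values ran from 9.77 to 10.74 with a median of 9.85 (mean 10.03 ± 0.37, n = 6). PAP libraries held it at 7.08 to 8.40, median 7.13 (mean 7.38 ± 0.51), and the PAP of mouse 8 alone was above 7.42. SCC libraries held it at 5.85 to 7.50, median 6.87 (mean 6.75 ± 0.64). No lesion of either kind reached the level of any CHR library. The mean differed from CHR by -2.66 in PAP and -3.29 in SCC, in 6 of 6 mice each. Raised values cannot change these, as the entry was detected in every library. A lowest value of 100 ppm, which lifts detected SCC values below it, gave -2.66 and -3.07. In the PAP libraries of mice 7 and 10, where few entries were detected, it stood above only 8.77% and 7.98% of the detected entries, so the PAP level of this entry is close to the limit of those libraries.

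miR-1843b-5p, from the other arm of the same hairpin, was a low entry in skin, from 5.77 to 6.57 in CHR with a median of 6.19 (mean 6.14 ± 0.31, detected in 6 of 6). In PAP it was detected only in mouse 3, at 5.40, the lowest detected value of that library, and undetected in the other 5. In SCC it was detected in all 6 libraries, from 4.41 to 7.09 with a median of 5.70 (mean 5.71 ± 1.10). The difference from CHR was -2.47 in PAP, with all mice lower. In SCC it was -0.43, with 3 mice higher and 3 lower. The PAP difference rests on undetected values. It was -0.65 with raised values, and 0 with a lowest value of 100 ppm. In 3 of the 5 PAP libraries without it, the lowest detected value was below the lowest CHR value, and in the PAP of mice 7 and 10 an entry at the level of CHR could have been missed.

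miR-1843a-5p was the lowest of the 5 entries in CHR, detected in 3 of 6 libraries and at most at 4.50 (median 3.57, mean 3.70 ± 0.47). It was undetected in 6 of 6 PAP libraries, all at 3.32. It was detected in 6 of 6 SCC libraries, from 3.52 to 5.81 with a median of 4.74 (mean 4.73 ± 0.94). In SCC, with undetected values at 3.32, 4 of the 6 values were above all CHR values and 5 of 6 mice were higher. In the CHR of mouse 7, where it was undetected, the lowest detected value was 5.77. That is above the SCC value of the same mouse (3.52) and every other SCC value except 5.81 in mouse 8. The SCC values of mice 7 and 10 (3.52 and 4.50) were the lowest detected values of their libraries. The mean in SCC was higher than in CHR by 1.03. That difference was 0.42 with raised values, and 0 with a lowest value of 100 ppm, which lies above all values of this entry. It was -0.37 in PAP, which turned to 1.18 with raised values, so no direction can be given for PAP. The 3p arm of this hairpin, miR-1843a-3p, was detected in 3 CHR, 1 PAP and 1 SCC libraries and at most at 4.46, too few for the test.

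miR-1981-3p was at 6.73 to 8.13 in CHR with a median of 7.44 (mean 7.40 ± 0.55, detected in 6 of 6). In PAP it was detected only in mouse 8, at 3.95, and undetected in the other 5 (mean 3.43 ± 0.26). In SCC it was detected in 5 of 6 libraries, undetected in mouse 8, with values up to 5.68 and a median of 4.62 (mean 4.65 ± 0.94). With undetected values at the lowest value of the table, all lesion libraries were below all CHR libraries. The mean differed from CHR by -3.97 in PAP and -2.75 in SCC, in 6 of 6 mice each. With raised values these were -1.88 and -2.59, and with a lowest value of 100 ppm both were -0.76. In 4 of the 5 PAP libraries without it the lowest detected value was below the lowest CHR value, the exception being mouse 10. In the PAP of mouse 7 the 2 values were nearly the same (6.723 against 6.734), so an entry at the lowest CHR level could have been missed there too. The table given here has no row for miR-1981-5p, which was not analysed here.

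**Figure D1:**
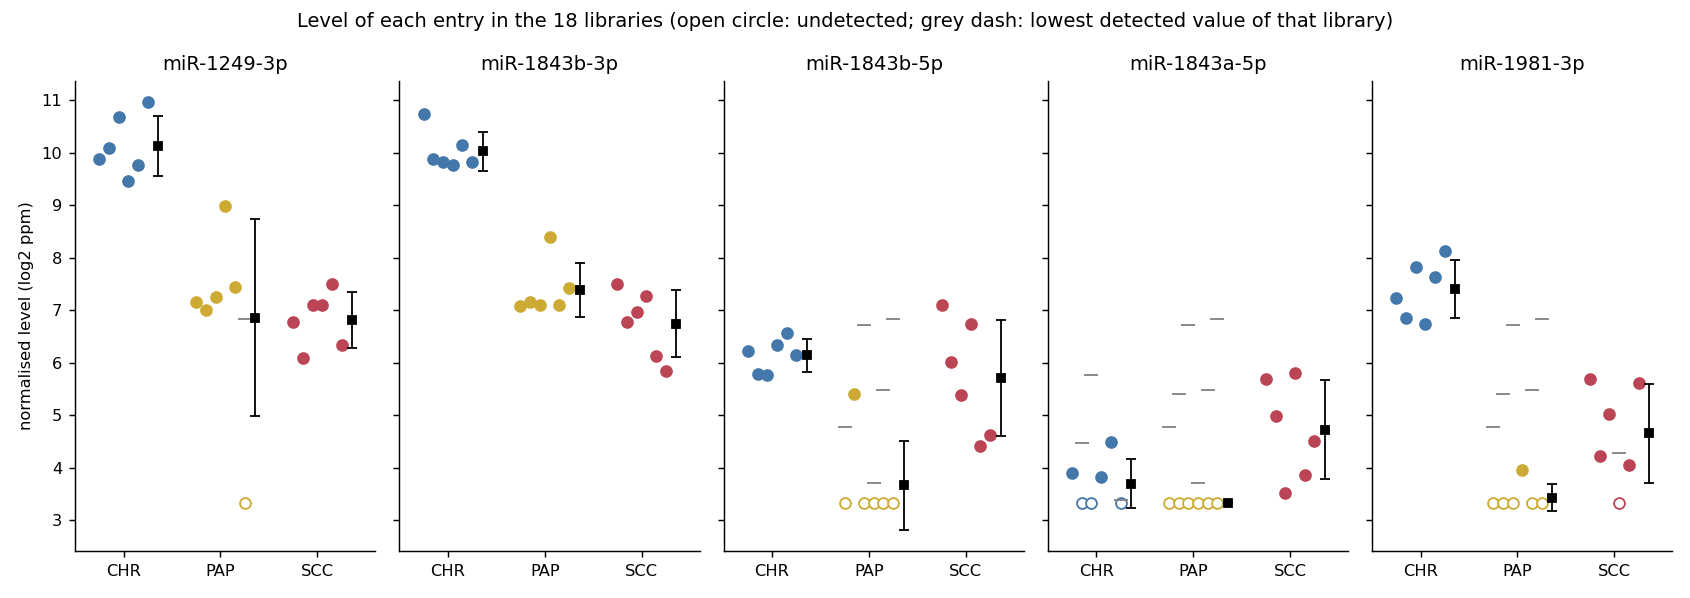
Normalised level (log2 ppm) of the 5 entries in the CHR, PAP and SCC libraries of the 6 mice. Each circle is 1 library, in the order of mouse number, an open circle at 3.32 is an undetected value with the lowest detected value of that library as a grey dash above it, and the square with bars is the mean ± SD. miR-1249-3p and miR-1843b-3p lie near 10 in CHR and near 7 in most lesions, while the open circles of miR-1843b-5p, miR-1843a-5p and miR-1981-3p are mostly PAP.

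The levels in order were miR-1249-3p and miR-1843b-3p (means 10.14 and 10.03), miR-1981-3p (7.40), miR-1843b-5p (6.14) and miR-1843a-5p (3.70) in CHR, where the ranges of the first pair overlapped and the other neighbours did not. In SCC the order was miR-1249-3p and miR-1843b-3p (6.82 and 6.75), miR-1843b-5p (5.71), miR-1843a-5p (4.73) and miR-1981-3p (4.65), and each range overlapped the next. Levels of different microRNAs are on the same ppm scale, but cloning and ligation efficiency differ between sequences and were not measured here.

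The comparison of SCC with PAP was not used to choose the entries and could be tested, although it shares its libraries with the comparisons that were used, so that an entry chosen for a low PAP value starts with a low PAP value here too. All 5 entries passed the filter of detection in at least 6 libraries. miR-1843a-5p passed it on 3 CHR and 6 SCC libraries alone. Of the 293 microRNAs tested with limma, 11.6% (34, of which 27 were higher and 7 lower in SCC) differed between SCC and PAP, and 1.37% had all SCC libraries above all PAP libraries. Of the 5 entries, both 5p entries of miR-1843 were past the adjusted threshold, as given below with what limits each, and the other 3 were not. miR-1843b-5p was higher in SCC by 2.04 (SE 0.54, 95% interval 0.87 to 3.21, limma adjusted p = 0.0394). With undetected values at 3.32 it was higher in 6 of 6 mice, and 3 SCC libraries were above all PAP libraries. In mice 7, 9 and 10, however, the SCC values (5.38, 4.41 and 4.61) were below the lowest detected values of their PAP libraries (6.72, 5.48 and 6.83). The direction in these mice is therefore not known. For miR-1843a-5p the fit gave 1.40 (SE 0.39, interval 0.56 to 2.25, limma adjusted p = 0.0394), but an entry undetected in every PAP library could pass the filter only by being detected in the other sample types, so its direction was set by the filter. Neither this p nor the separation of all its SCC from all its PAP libraries is read as support for a difference. As the pair shares most of its sequence, this may be a single result. With the mouse as a replicate block the limma adjusted p of miR-1843a-5p was 0.0604. Both calls were lost when any mouse other than mouse 10 was left out (limma adjusted p from 0.0617 to 0.137 for miR-1843b-5p and from 0.0621 to 0.172 for miR-1843a-5p). They rest on undetected PAP values, in 5 of 6 libraries for miR-1843b-5p and 6 of 6 for miR-1843a-5p. With raised values the difference was 0.22 for miR-1843b-5p (limma adjusted p = 0.794) and -0.76 for miR-1843a-5p (0.318), beside a median over all tested entries that moved from 0.21 to -0.48 and calls that moved to 18 higher and 62 lower.

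miR-1981-3p differed by 1.23 between SCC and PAP (SE 0.40, interval 0.36 to 2.09, limma adjusted p = 0.0730), with 5 of 6 mice higher, and by -0.71 with raised values. miR-1843b-3p differed by -0.63 (SE 0.35, interval -1.39 to 0.13, limma adjusted p = 0.257), with 5 of 6 mice lower. For miR-1249-3p the difference was -0.04 (SE 0.73, interval -1.64 to 1.55, limma adjusted p = 0.974), and its sign turned with centred libraries (0.06). Without mouse 10, whose PAP was the undetected one, the difference was -0.66 (SE 0.42, limma adjusted p = 0.289).

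**Figure D2:**
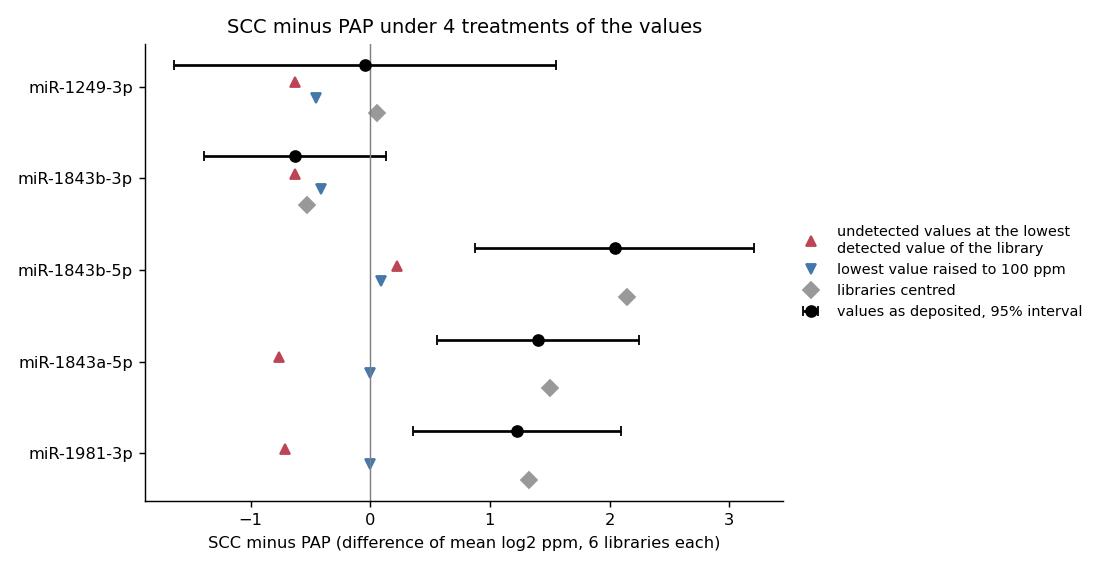
Difference of mean log2 ppm, SCC minus PAP (6 libraries each), for the 5 entries. Black circles with bars are the deposited values with their 95% interval, and triangles and diamonds are the same difference with raised values (undetected entries at their library's lowest detected value), with a lowest value of 100 ppm and with centred libraries. The upward triangles of miR-1843a-5p (-0.76) and miR-1981-3p (-0.71) lie on the other side of 0 from the black circles (1.40 and 1.23).

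The 2 arms of Mir1843b could be compared within each library, which removes what acts on both arms alike. Quantile normalization acts by rank, and need not act alike on arms at different levels. Reads shared with miR-1843a-5p may also count in the 5p arm, so the difference cannot be assigned to Mir1843b alone. The 5p arm was lower than the 3p arm in all 18 libraries. The difference, 5p minus 3p, was -3.90 ± 0.41 in CHR, -3.71 ± 1.08 in PAP and -1.04 ± 0.55 in SCC (SD, n = 6). In CHR it ran from -4.53 to -3.44 and in SCC from -1.72 to -0.40. Against CHR the 3p arm thus differed by -3.29 in SCC and the 5p arm by -0.43. That contrast was used to choose the entries and was not tested. SCC and PAP differed by 2.67, but in PAP the 5p arm was detected in 1 library only, so 5 of the 6 PAP differences are the lowest value of the table minus the 3p arm. The exact permutation test on them (two-sided p = 0.00216, the smallest that 6 against 6 libraries can give, adjusted 0.00433 over the 2 differences) is therefore not read as a difference between the arms. With raised values, SCC and PAP differed by 0.85 (exact permutation p = 0.240). The difference between SCC and CHR does not rest on undetected values, since both arms were detected in all 12 of these libraries. Within SCC, the libraries with more of one arm had more of the other (Pearson r = 0.931 over 6 libraries from 6 mice, which share the normalization). In CHR the same r was 0.306.

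For the near-identical 5p entries, miR-1843a-5p minus miR-1843b-5p was -2.44 ± 0.25 in CHR and -0.98 ± 0.62 in SCC, with no overlap (-2.83 to -2.07 against -1.86 to -0.11). Both were detected in 3 CHR and 6 SCC libraries, and in the other 3 CHR libraries miR-1843a-5p stood at the lowest value. In the 3 CHR libraries with both detected (mice 2, 8 and 9) the differences were -2.33, -2.52 and -2.07, below those of all SCC libraries. With raised values the CHR differences ran from -2.76 to 0 and overlapped those of SCC. The separation over all 6 CHR libraries therefore depends on undetected values, and it was not tested. In PAP both were undetected in 5 of 6 libraries, which sets the difference there to 0, and SCC against PAP (-0.64, exact permutation p = 0.177) has no reading. In SCC libraries with more of one entry had more of the other (r = 0.829, n = 6).

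**Figure D3:**
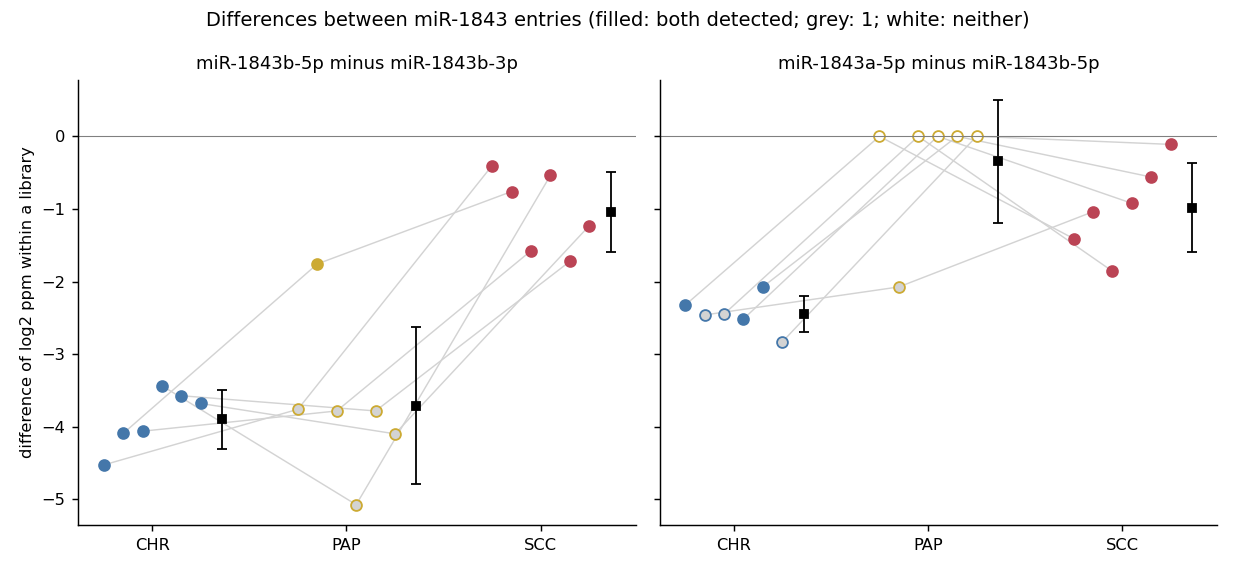
Differences of log2 ppm within each library between the arms of Mir1843b (left) and between the 2 nearly identical 5p entries (right), with thin lines joining libraries of the same mouse and squares with bars for the mean ± SD. Filled circles have both entries detected, grey circles 1 and white circles none. In the left panel SCC lies between -1.72 and -0.40, above all CHR libraries. The PAP points lie lower too, but 5 of the 6 are the lowest value of the table minus the 3p arm and are not read.

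Likeness across the 18 libraries was taken as Pearson's r with each of the other tested entries. It is a description, as the libraries share mice, sample types and a normalization, and differences between the 3 sample types make up much of each r. miR-1249-3p was most like miR-342-3p (r = 0.927), miR-92b-3p (0.923) and miR-150-5p (0.905). miR-342-3p and miR-150-5p are abundant in lymphocytes, and miR-92b-3p belongs to the miR-25 and miR-92 family. Its r with miR-342-3p was 0.845 within CHR and 0.783 within SCC. Within PAP it was 0.912, but both were undetected in the PAP of mouse 10 and nowhere else, and over the other 5 PAP libraries r was 0.303. Over the 17 libraries with both detected it was 0.908. The level of miR-342-3p was 12.4 ± 0.83 in CHR, 8.79 ± 2.82 in PAP and 9.59 ± 0.67 in SCC.

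miR-1981-3p was most like miR-5107-3p (r = 0.905), miR-218-1-3p (0.839), an arm of a hairpin in an intron of Slit2, and miR-34b-3p (0.812), of a family induced by p53. Within sample types this did not hold. For miR-5107-3p r was 0.140 in CHR and 0.453 in SCC (0.152 over the 5 SCC libraries with both detected), and for miR-34b-3p it was -0.749 and -0.602. miR-1843b-3p was most like miR-34b-3p (0.898), miR-204-5p (0.853) and miR-328-3p (0.827). The level of miR-204-5p was 9.47 ± 0.21 in CHR, 4.05 ± 1.22 in PAP and 5.28 ± 1.72 in SCC. Within CHR and SCC, r was 0.394 and 0.664 for miR-34b-3p, -0.730 and 0.779 for miR-204-5p, and 0.206 and -0.793 for miR-328-3p. Over the 5 SCC libraries with both detected, r with miR-34b-3p was 0.349. miR-1843b-5p was most like miR-195a-3p (0.841), the lesser arm of a member of the miR-15 and miR-16 family, with 0.818 within CHR and 0.797 within SCC. miR-218-1-3p (0.816) and miR-669o-3p (0.809), from the large cluster in Sfmbt2, came next. miR-1843a-5p was most like miR-101c and miR-101a-3p, whose values in the table are the same (0.827), and miR-96-5p (0.768), but only 6 and 5 libraries had both entries of these pairs detected. Among the 5 entries, the highest pair was miR-1249-3p with miR-1843b-3p (0.799), followed by miR-1981-3p with miR-1843b-3p (0.794) and with miR-1249-3p (0.766). The entries were chosen for changes between lesions and skin, which such an r over all libraries includes, so nothing is read from it. Within CHR and SCC the same pairs had r of -0.296 and 0.103, of -0.056 and -0.117, and of 0.795 and -0.349.

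**Figure D4:**
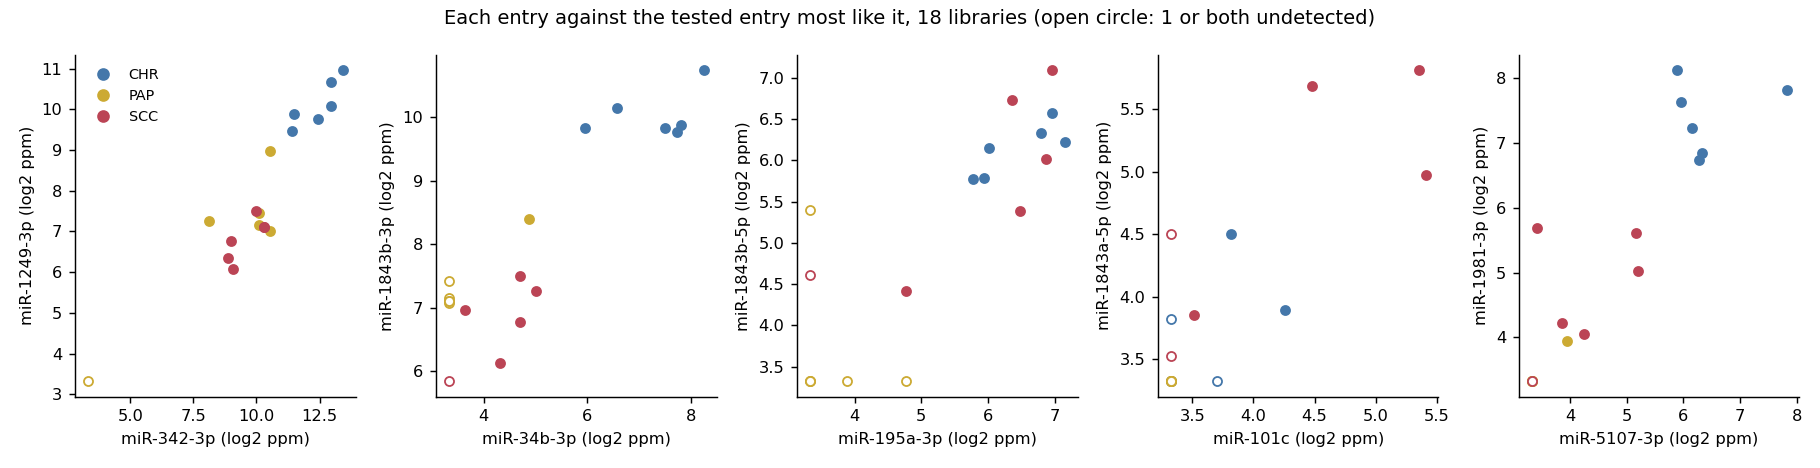
Level (log2 ppm) of each of the 5 entries (vertical axis) against that of the tested entry with the highest Pearson r over the 18 libraries (horizontal axis), with CHR, PAP and SCC in colours and open circles where 1 or both were undetected. The points of miR-1249-3p and miR-342-3p rise together within CHR (r = 0.845) and SCC (r = 0.783), while the CHR points of miR-1981-3p do not follow miR-5107-3p (r = 0.140).

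Other late-catalogued microRNAs were counted beside these entries. Of 422 other entries numbered 1000 or higher, 63 were detected in any library and 33 were tested. In PAP against CHR, 5 were higher and 4 lower (limma adjusted p under 0.05), beside 41 higher and 54 lower of all 293, and the median difference was 0.14 against -0.23. In SCC against CHR, 1 was higher and 9 lower, beside 59 higher and 65 lower of all 293, with a median of -0.40 against 0.11. In SCC against PAP, miR-1247-5p was higher (2.12, SE 0.57, limma adjusted p = 0.0394), and miR-3107-5p, nearly identical to the erythroid miR-486 (-1.83, SE 0.49, 0.0394), and miR-1198-5p (-1.25, SE 0.34, 0.0394) were lower. With the mouse as a replicate block the limma adjusted p of miR-1198-5p was 0.0829. In this comparison only 1 of all 293 was called without mouse 3, 7 or 8, each left out alone. The high-numbered entries called in PAP against CHR thus went in both directions.

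Markers of cell types were set beside the 5 entries, and the lists did not all go the same way. Calls below are by the limma test. Of all 293 tested microRNAs it called 32.4% in PAP against CHR, 42.3% in SCC against CHR and 11.6% in SCC against PAP. The SCC against PAP calls were not stable. Without mouse 3, 7 or 8, each left out alone, 1 of the 293 was called, and 0 by exact permutation. With raised values 18 were called higher and 62 lower. Linear values summed over the list of 4 skeletal muscle microRNAs, with undetected ones at 10 ppm each, reached 44498 to 64671 ppm in CHR libraries, against 40 to 5580 for PAP and 66 to 19350 for SCC. All 3 tested members were lower in PAP than in CHR and higher in SCC than in PAP, and 1 was lower in SCC than in CHR. In PAP, miR-133a-3p was detected in 3 libraries, and miR-133b-3p, miR-206-3p and miR-1a-3p in none (miR-1a-3p was also undetected in all CHR libraries). The 6 leukocyte microRNAs, among them miR-342-3p and miR-150-5p, gave 8942 to 19900.2 ppm for CHR, 534 to 3632 for PAP and 2253 to 6194 for SCC. In PAP, miR-155-5p and miR-142-3p were undetected in every library, and in CHR miR-155-5p was. By the limma test 2 of the 4 tested members were lower in PAP than in CHR, while in SCC against CHR 2 were lower and 1 was higher. In SCC against PAP 1 was higher. The 6 of fibroblasts and smooth muscle summed to 21435 to 35504, 2241 to 18435 and 6595 to 52875 ppm in CHR, PAP and SCC, and 3 of the 6 were higher in SCC than in PAP by the limma test. Against CHR, 4 of the 6 were lower in PAP and 1 was lower in SCC. The 2 endothelial microRNAs, at 229 to 652, 195 to 513 and 612 to 2310.4 ppm, were both higher in SCC than in PAP and than in CHR, and neither was called in PAP against CHR. The 7 epithelial microRNAs, all detected in each sample type, summed to 185294 to 372236, 223802 to 384382 and 185085 to 382072 ppm. Against CHR, 4 of the 7 were higher in PAP and 3 in SCC, and 1 was lower in SCC than in PAP. The 4 erythroid ones, of which miR-144-3p and miR-144-5p were undetected in all CHR and PAP libraries, summed to 106087 to 234938, 106402 to 309706 and 29851 to 239854 ppm. Of the 2 tested, 1 was higher in PAP than in CHR and 1 was lower in SCC than in PAP. In SCC against CHR 1 was higher and 1 lower. The part of these cell types in the levels of the 5 entries was not tested.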

How the data were processed

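Small RNA libraries of 18 mouse skin samples were analysed. The authors trimmed adapters, removed reads that were very short or ended in long homopolymers, used BLAST to map the others to miRBase and gave each microRNA as ppm of usable reads. The deposited values are log2 values of these ppm, which the values themselves show to be quantile normalized between the 18 libraries with a lowest value of 10 ppm. Converted back, they sum to 2.35 to 2.36 times the full ppm scale in each library, so they are not exact shares. The depth per library is unknown. The submitters' processing notes name mm10. Human samples were not used here.

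Detection was a value above the lowest of the table. The 293 of 1251 entries detected in at least 6 libraries were tested with limma 3.58.1 (lmFit and eBayes, R 4.3.3) on the log2 values, each pair of sample types separately, two-sided, without pairing by mouse, with Benjamini-Hochberg adjustment at 0.05. The scripts were tested on simulated data. Differences between arms were compared with exact permutation tests (scipy 1.17.1), and matplotlib 3.10.9 drew the plots. The named microRNAs are the 5 entries, the other arms of their hairpins, entries sharing a seed or lying within 10 kb (none was found), the 3 most like each by r, and entries numbered 1000 or higher that differed between SCC and PAP. Sequences and positions come from RefSeq and GENCODE M21 on GRCm38, the build that mm10 denotes. The members, lists and tests were chosen with earlier results of these data known.

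The labels number samples by mouse, so the 3 sample types are paired within mice. Deviations from group means within mice correlated at r = 0.0250 (PAP and CHR), -0.0676 (SCC and CHR) and 0.0582 (SCC and PAP) on average, and exceeded 0.1 in 2, 1 and 2 of 6 mice. Alternatives were the mouse as a replicate block, a fit on all 18 libraries, filters of 1 and 12 libraries, centring of each library on the microRNAs detected in all, raised values (undetected entries at their library's lowest detected value), a lowest value of 100 ppm, exact permutation tests, and leaving out each mouse.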

Additional observations from a re-analysis of the deposited data

Results flagged for a closer look

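In 4 of the 14 combinations of entry and sample type with any spread, 1 library stood apart from the other 5 by Dixon's ratio (its gap to the nearest other library over the whole range of the group), where chance alone marks about 1 in 20. All 4 are PAP. The PAP of mouse 10 held miR-1249-3p at 3.32, undetected, against 7.0 to 8.99 in the others (ratio 0.649). The lowest detected value of that library was 6.83, so this ratio depends on where the undetected value is put. The PAP of mouse 8 held miR-1843b-3p at 8.40 against 7.08 to 7.42 (ratio 0.742). miR-1843b-5p was detected in the PAP of mouse 3 alone, at 5.40 (ratio 1), and miR-1981-3p in the PAP of mouse 8 alone, at 3.95 (ratio 1). The ratio of 1 follows from 5 values that are all at the lowest value of the table.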

How the results depend on the processing

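Against CHR, 83 of 90 differences of the 5 entries under the alternatives moved by less than 1 SD and did not take the opposite sign, 2 of them to 0 (miR-1843a-5p in PAP and in SCC with a lowest value of 100 ppm). With raised values (undetected entries at their library's lowest detected value), PAP minus CHR was -0.65 for miR-1843b-5p, -1.88 for miR-1981-3p and 1.18, of opposite sign, for miR-1843a-5p. With a lowest value of 100 ppm it was 0 for miR-1843b-5p and -0.76 for miR-1981-3p, and SCC minus CHR was -0.76 for miR-1981-3p and 0.090, of opposite sign, for miR-1843b-5p.

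For SCC minus PAP, the limma adjusted p of miR-1843b-5p (2.04) was 0.0646 over all entries detected in at least 1 library, 0.794 (0.22) with raised values and 0.570 (0.090) with a lowest value of 100 ppm. That of miR-1843a-5p (1.40) was 0.0646, 0.318 (-0.76) and 1 (0) in the same order, and 0.0604 with the replicate block. The exact permutation test, in place of limma, gave each an adjusted p of 0.0945. Its smallest p for 6 against 6 libraries is 0.00216, which limits any adjusted p over 293 entries. miR-1981-3p passed the threshold in the fit on all 18 libraries (1.23, adjusted p = 0.0333) and changed sign with raised values (-0.71). miR-1249-3p changed sign with centred libraries (0.057). With raised values the arm difference of miR-1843b was 0.85, and that of the 2 5p entries was -0.98, past the threshold (exact permutation p = 0.00216) with every PAP difference at 0. Leaving out each mouse gave -0.66 to 0.32 for miR-1249-3p, -0.84 to -0.44 for miR-1843b-3p, 1.70 to 2.33 for miR-1843b-5p, 1.19 to 1.64 for miR-1843a-5p, 1.0 to 1.60 for miR-1981-3p, 2.30 to 3.01 for the arm difference and -0.97 to -0.39 for the 5p entries, the last also past the threshold without mouse 3 (-0.97).

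The number of microRNAs called in SCC against PAP, 34, was 24 with the replicate block, which among the 5 entries and the 3 high-numbered ones named ended the calls of miR-1843a-5p (adjusted p = 0.0604) and miR-1198-5p (0.0829) by limma. It changed no call of the 2 arm differences. It was 2 with entries detected in at least 1 library, 21 with at least 12, 80 with raised values, 2 with a lowest value of 100 ppm and 0 by exact permutation (75 at an unadjusted p under 0.05), and 1 to 59 without a mouse (1 without mouse 3, 7 or 8, 59 without mouse 10). PAP against CHR gave 57 and SCC against CHR 80 with a lowest value of 100 ppm, and 55 to 79 and 77 to 129 without a mouse. The median over all tested entries in PAP against CHR moved from -0.23 to -0.37 with centred libraries and to 0.44 with raised values, where 63 were higher and 37 lower in place of 41 and 54. The causes were not tested. Unknown depth and the high lowest detected values of PAP limit what can be said of miR-1843b-5p, miR-1843a-5p and miR-1981-3p in papilloma.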
